A study of Mus musculus with 3 samples.

Results

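The genes of the PGC-1 coactivators, of the peroxisome proliferator-activated receptors (PPARs) and of the estrogen-related receptors (ERRs) form a group of 8: Ppargc1a and Ppargc1b, Ppara, Ppard and Pparg, and Esrra, Esrrb and Esrrg. They are listed by name, out of 21887 protein-coding genes in the RefSeq annotation of mouse build GRCm38, which is the assembly behind mm10. A peak of methylated DNA was given to a gene when its midpoint lay between the annotated start and end. This put 156 of 162107 TAC peaks and 125 of 135886 Sham peaks in the 8 gene bodies.

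The study profiled 5-methylcytosine (5mC) in cardiomyocytes isolated from male C57Bl6/J mice 8 weeks of age. The TAC library is from cardiomyocytes after 1 week of pressure overload, and the Sham library is from cardiomyocytes after the control operation. Each group is 1 library, so no difference below has a replicate check, and the sources used here do not give the number of animals behind a library. DNA extraction, precipitation with an Active Motif antibody and library preparation were done by the Active Motif service. An Input library without antibody was the common background of both peak calls and was not analysed here on its own. The TAC library had 14658177 tags with 34.7% of them in peaks, and the Sham library 12585289 tags with 29.9% in peaks, per the file headers. A peak says that methylated fragments piled up over input; it gives no percentage of methylated molecules. Libraries of this kind are bulk, so fewer cells carrying a methylated locus and less methylation per cell cannot be told apart.

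PGC-1 proteins bind no DNA themselves. They dock on nuclear receptors, above all PPARs and ERRs, and raise transcription of genes for mitochondria, fatty acid oxidation and oxidative phosphorylation. PPARs are fatty acid sensors that bind DNA as partners of the retinoid X receptors (RXRs), whereas ERRs are orphan receptors that bind without a known natural ligand. In the heart this circuit sustains the use of fatty acids as fuel, and it is known to be turned down in overloaded and failing hearts.

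TAC listed more 5mC peaks than Sham within most of these genes. The 156 TAC and 125 Sham peaks gave a TAC share of 55.5% (exact 95% interval 49.5 to 61.4) and a ratio of 1.25, against a ratio of 1.07 over all protein-coding genes and 1.19 over all peaks of the lists. Of the 8 genes, 6 had more TAC than Sham peaks, where 39.7% of protein-coding genes with any peak did. Esrrb had fewer, where 32.8% did, and Esrra had equal numbers. The median protein-coding gene held 1 peak per list, and these percentages were not matched for peak number or gene length. With the TAC list cut by order to the Sham number, or with nearly equal depth-scaled thresholds, 5 genes had more TAC peaks, Esrrb and Esrra had fewer and Pparg had equal numbers. For each of the 8 genes taken alone the interval of the TAC share held an even split. Intervals here are Clopper-Pearson and cover counting error only, and neighbouring peaks are not independent.

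**Figure D1:**
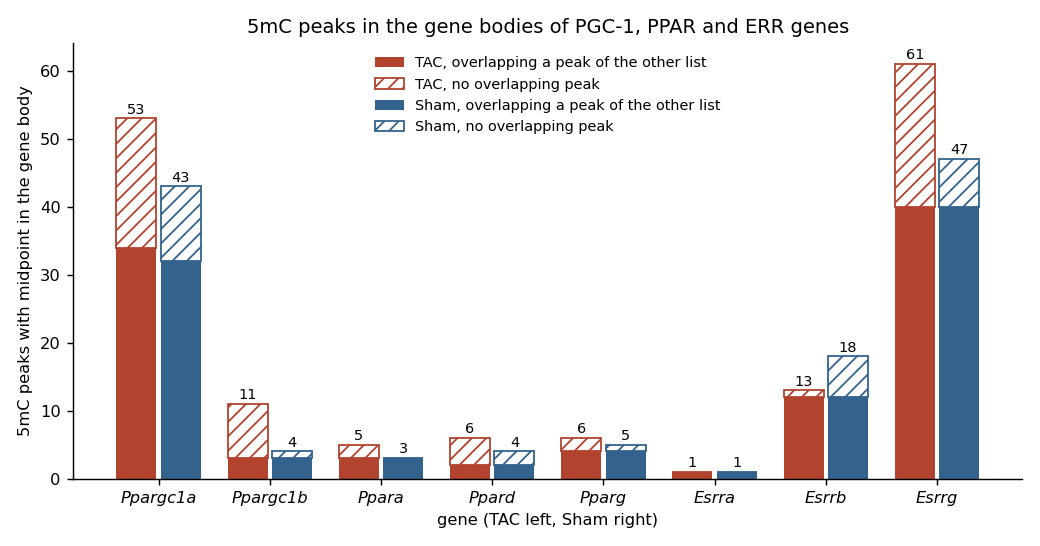
Number of 5mC peaks with their midpoint in each gene body, TAC at left and Sham at right. Solid parts are peaks that overlap a peak of the other list by at least 1 bp, hatched parts those that do not. Ppargc1a and Esrrg carry most of the peaks of both lists, and Ppargc1b has 11 TAC and 4 Sham peaks.

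Most of the peaks recurred in both libraries. Among TAC peaks of the 8 genes 99 overlapped a Sham peak, or 63.5% (55.4 to 71.0), and over all protein-coding genes 59.9% did. Among Sham peaks 97 overlapped a TAC peak, or 77.6% (69.3 to 84.6), and over all protein-coding genes 63.8% did. That left 57 TAC peaks and 28 Sham peaks without a counterpart. The peaks sat about as high in their lists as those of other genes. The row fraction, which is the row of a peak divided by the number of rows of its list, was at most 0.5 for 84 TAC peaks (53.8%, against 51.1% in all protein-coding genes). It was at most 0.5 for 69 Sham peaks (55.2%, against 52.3%). Low row fractions are read as strong peaks, as explained under the processing of the lists.

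An annotated end with a peak was found in 1 of the 8 genes, Ppard. An end was called covered when a peak reached within 1000 bp of it, which was so for 24.5% of protein-coding genes in TAC and 23.6% in Sham. Of the 8 genes, 1 was covered in TAC and 0 in Sham, and 7 were covered in neither library, as were 67.8% of protein-coding genes. On 8 genes, these counts do not set the group apart from other protein-coding genes. Within 2000 bp of an end, 3 of the genes were covered in TAC and 3 in Sham, and the share of all protein-coding genes was not counted at that width. Ppard encodes the PPAR isoform found in most tissues. A TAC peak of 651 bp (chr17:28232839-28233489) began 85 bp after the annotated start of Ppard, while the nearest Sham peak lay 10.1 kb away. Coverage in TAC alone was found for 8.59% of protein-coding genes. The Ppard peak had a row fraction of 0.612, so it stood in the weaker part of the TAC list. Some peaks lay just past the limit. The nearest peak to the 3′ end of Ppard was 5.98 kb away in TAC and 1037 bp in Sham, and the nearest to the 5′ end of Esrrg was 1184 bp away in TAC and 1010 bp in Sham.

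RefSeq promoter windows of GRCm38.p6 list 13 transcription starts for 7 of the genes, several of them inside the gene bodies. A TAC peak lay within 1000 bp of 3 of these starts, where 16.5% of all 32851 listed starts had one. A Sham peak lay within 1000 bp of 1, where 15.6% of all starts had one. The 3 starts belong to Ppard, to an internal start of Pparg and to an internal start of Esrrb. The TAC peak at the internal Pparg start (chr6:115422979-115423479) was 913 bp downstream of it, and the nearest Sham peak was 42.9 kb away. At the internal Esrrb start both libraries had a peak upstream, at 816 bp in TAC and 853 bp in Sham, and these peaks overlap. The 250 bases upstream of these 3 starts are printed first, because they are the ones with a peak nearby. The first start of Pparg and the listed start of Ppargc1a follow as the CpG-richest window of the 13 and as the window inside the longest stretch between TAC peaks in any of the gene bodies. All run 5′ to 3′ on the strand of the gene, with each CpG, the dinucleotide that carries 5mC in mammals, in capitals.
Ppard, chr17:28232504-28232753, plus strand: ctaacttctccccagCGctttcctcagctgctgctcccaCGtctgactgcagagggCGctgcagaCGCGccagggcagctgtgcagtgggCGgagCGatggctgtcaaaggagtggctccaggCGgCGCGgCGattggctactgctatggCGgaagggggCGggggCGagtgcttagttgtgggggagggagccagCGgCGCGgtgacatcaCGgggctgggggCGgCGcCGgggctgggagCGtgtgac
Pparg internal start, chr6:115421816-115422065, plus strand: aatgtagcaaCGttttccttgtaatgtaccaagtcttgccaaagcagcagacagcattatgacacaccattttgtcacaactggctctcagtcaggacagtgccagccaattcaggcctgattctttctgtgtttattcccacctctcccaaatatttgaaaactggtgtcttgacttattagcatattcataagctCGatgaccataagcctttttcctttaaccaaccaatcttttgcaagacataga
Esrrb internal start, chr12:86421394-86421643, plus strand: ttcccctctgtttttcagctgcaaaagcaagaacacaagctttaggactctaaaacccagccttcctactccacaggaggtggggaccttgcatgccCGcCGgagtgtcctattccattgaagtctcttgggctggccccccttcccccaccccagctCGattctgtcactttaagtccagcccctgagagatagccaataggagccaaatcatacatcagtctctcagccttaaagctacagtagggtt
Pparg first start, chr6:115360894-115361143, plus strand: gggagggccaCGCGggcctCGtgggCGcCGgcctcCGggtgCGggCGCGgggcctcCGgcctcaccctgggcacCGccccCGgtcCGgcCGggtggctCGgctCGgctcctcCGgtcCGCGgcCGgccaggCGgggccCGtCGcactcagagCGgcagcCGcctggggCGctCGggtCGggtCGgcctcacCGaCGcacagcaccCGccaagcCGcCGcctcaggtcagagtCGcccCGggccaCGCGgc
Ppargc1a, chr5:51567726-51567975, minus strand: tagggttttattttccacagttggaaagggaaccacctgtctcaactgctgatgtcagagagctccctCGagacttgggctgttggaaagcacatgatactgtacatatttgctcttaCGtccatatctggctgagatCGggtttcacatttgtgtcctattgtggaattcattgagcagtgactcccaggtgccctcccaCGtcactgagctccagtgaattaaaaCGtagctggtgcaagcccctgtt

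The windows differ widely in CpG number. The Ppard window holds 22 CpG, the internal Pparg window 2, the internal Esrrb window 3, the first Pparg window 38 and the Ppargc1a window 5. Over the 13 starts the median was 14, against 6 over all listed starts. The first starts of Ppara (27 CpG) and Esrra (22 CpG) were also rich in CpG, and neither had a peak of either list within 1000 bp. Among all starts with at least 10 CpG upstream, 11.1% had a TAC peak and 10.1% a Sham peak within 1000 bp. Among starts with fewer, 19.8% had a TAC peak and 18.9% a Sham peak. Among the 7 genes with listed starts, Ppard alone had both a start with at least 10 CpG and a peak within 1000 bp of that start. The letters of the ERR response motif, AAGGTCA, occurred on either strand in 0 of the 13 windows of 300 bases and in 4.72% of all windows. Those of the shorter nuclear receptor motif, AGGTCA, which the longer motif contains, occurred in 2 of the 13, both of Pparg, and in 16.3% of all windows.

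Ppargc1a encodes PGC-1α, the coactivator that responds to exercise, cold and energy demand. On chromosome 5 (51454249 to 52115853, minus strand) its annotation spans 662 kb, and it held 53 TAC and 43 Sham peaks. Scaled for length this was 8.01 TAC and 6.50 Sham peaks per 100 kb. Of these, 34 TAC and 32 Sham peaks were shared. The peaks were unevenly spread: cut into 5 equal parts from the 5′ to the 3′ end, the gene held 15, 10, 13, 10 and 5 TAC peaks and 13, 9, 10, 8 and 3 Sham peaks. The listed promoter start lies 548 kb from the annotated 5′ end. Upstream of it the gene held 49 TAC and 41 Sham peaks, or 8.94 and 7.48 per 100 kb. The 113 kb from that start to the 3′ end held 4 TAC and 2 Sham peaks, or 3.52 and 1.76 per 100 kb. The start itself fell in the longest stretch between peaks of the gene, 76.7 kb in TAC and 57.0 kb in Sham, with the nearest peak 16.2 kb upstream in TAC and 16.4 kb upstream in Sham.

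The strongest peaks of Ppargc1a were present in both libraries. The inferred tag number used here is read from the order of the deposited list, and scaled tags are that number per 10000000 tags of the library. The top TAC peak of the gene (chr5:51820807-51822826, 2020 bp) had 50.5 scaled tags, and its Sham counterpart of 1863 bp had 38.1 (ratio 1.32, interval 0.908 to 1.95). At the top Sham peak (chr5:52049917-52050985) TAC had 44.3 and Sham 58.8 (ratio 0.754, interval 0.532 to 1.07). A Sham peak of 1526 bp at 193 kb from the 5′ end was listed in TAC as 2 separate peaks, with 47.8 scaled tags summed in TAC and 55.6 in Sham. The strongest TAC peak of Ppargc1a without a counterpart (chr5:51649137-51649999) had 28.7 scaled tags and lay 10.9 kb from the nearest Sham peak. The strongest Sham peak without a counterpart (chr5:51710423-51711057) had 19.9, and the nearest TAC peak was 1.88 kb away.

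**Figure D2:**
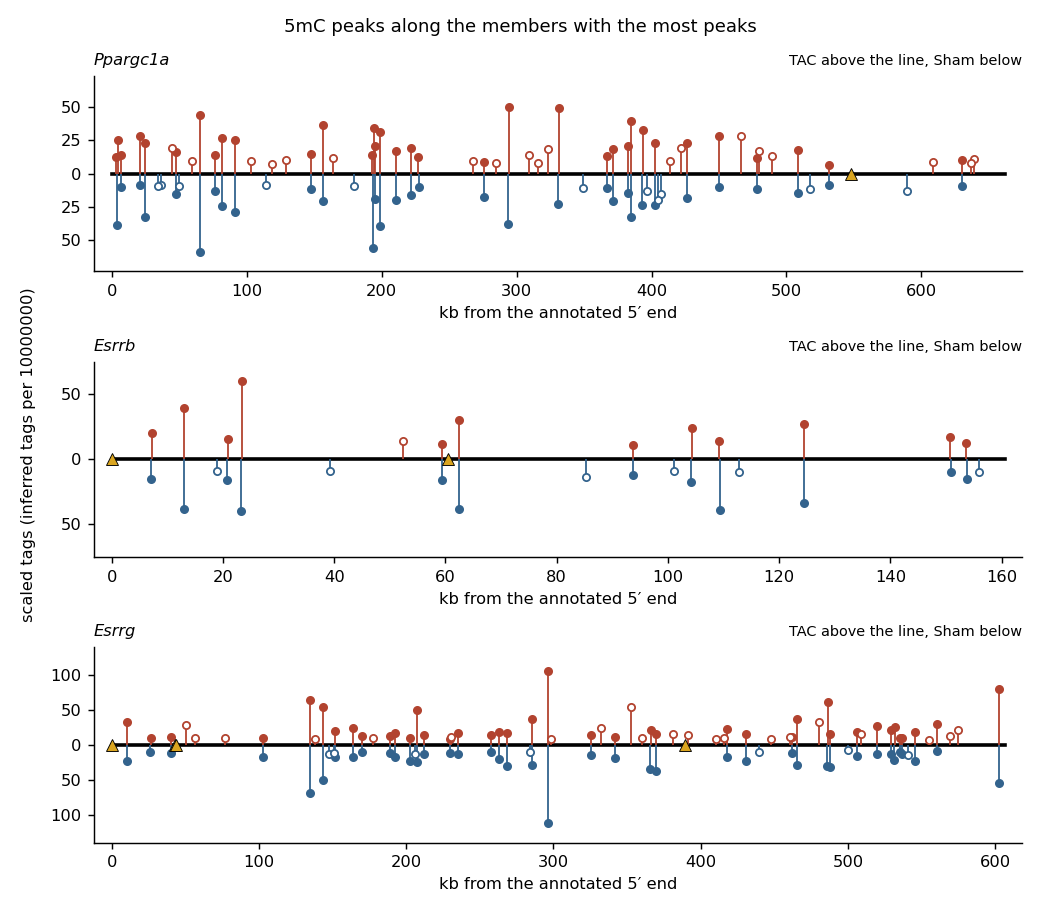
Peaks along Ppargc1a, Esrrb and Esrrg. The x axis is the distance in kb from the annotated 5′ end, the y axis scaled tags, TAC above and Sham below the gene line. Filled circles are shared peaks, open circles peaks without a counterpart, and triangles listed promoter starts. In Ppargc1a the only triangle, at 548 kb, lies in a stretch with no peak of either list. In Esrrg the tallest stems of both lists stand at the same place, 296 kb from the 5′ end.

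Ppargc1b encodes PGC-1β, the related coactivator expressed in heart and brown fat. It lies on chromosome 18 (61291445 to 61400756, 109 kb) and held 11 TAC and 4 Sham peaks. The TAC share of 73.3% (44.9 to 92.2) was the highest among the 8 genes, with an interval that still held an even split. The gene held 9 TAC and 4 Sham peaks at nearly equal depth-scaled thresholds, and 6 TAC and 4 Sham peaks with the TAC list cut to the Sham number, a TAC share of 60%. Of the 11 TAC peaks 3 had a Sham counterpart and 8 did not, whereas 3 of the 4 Sham peaks were shared. The strongest peaks were shared, but the weakest shared TAC peak had as many scaled tags, 21.1, as the strongest unshared TAC peak. The peak at 61310454 to 61311097 had 95 inferred tags in TAC and 30 in Sham, which is 64.8 and 23.8 scaled tags (ratio 2.72, interval 1.79 to 4.25). The peak at 61374864 to 61375489 had 62.8 scaled tags in TAC and 33.4 in Sham (ratio 1.88, interval 1.29 to 2.78). The third shared peak had 21.1 in TAC and 28.6 in Sham (ratio 0.739, interval 0.442 to 1.23). The 8 TAC peaks without a counterpart had 8.19 to 21.1 scaled tags, and the strongest of them (61377979 to 61378479) lay 2.50 kb from the nearest Sham peak. The microRNA gene Mir378a, which lies inside Ppargc1b, held no peak in either library.

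Each of the PPAR genes held slightly more TAC than Sham peaks, on small counts. This order did not hold for Ppard and Pparg in all settings. Among peaks with a row fraction of at most 0.5, Ppard held 0 TAC and 1 Sham peak and Pparg 1 TAC and 3 Sham peaks. With the TAC list cut to the Sham number, and at nearly equal thresholds, Pparg held 5 TAC and 5 Sham peaks. Ppara, the main fatty acid sensor of heart and liver (chromosome 15, 85734910 to 85806851), held 5 TAC and 3 Sham peaks, and all 3 Sham peaks were shared. A wide TAC peak of 1162 bp (chr15:85737623-85738784) lay 1.85 kb downstream of the listed start of Ppara, with 30.0 scaled tags and a row fraction of 0.170. The nearest Sham peak to it was 6.54 kb away. The strongest peak of the gene in both lists lay near 71% of its length, with 44.3 scaled tags in TAC and 34.2 in Sham (ratio 1.30, interval 0.870 to 1.95).

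Ppard (chromosome 17, 28232754 to 28301469) held 6 TAC and 4 Sham peaks, of which 2 in each list were shared. Its peaks were weak in both libraries, with row fractions of 0.505 to 0.957 in TAC and 0.420 to 0.959 in Sham. Pparg, the master regulator of fat cell formation (chromosome 6, 115360879 to 115490404), held 6 TAC and 5 Sham peaks, 4 in each list shared. Most of them lay in the 3′ part: the 59.7 kb between the second listed start and the internal one held 1 TAC and 1 Sham peak, and the 68.3 kb downstream of the internal start held 5 TAC and 4 Sham peaks. The strongest Pparg peak (chr6:115481151-115481777), close to the 3′ end, had 73.7 scaled tags in TAC and 41.3 in Sham (ratio 1.78, interval 1.27 to 2.53). The next peak toward the 3′ end went the other way, with 11.6 in TAC and 27.0 in Sham (ratio 0.429, interval 0.225 to 0.790). It was 629 bp wide in TAC and 867 bp in Sham, and the tags were not scaled for width.

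**Figure D3:**
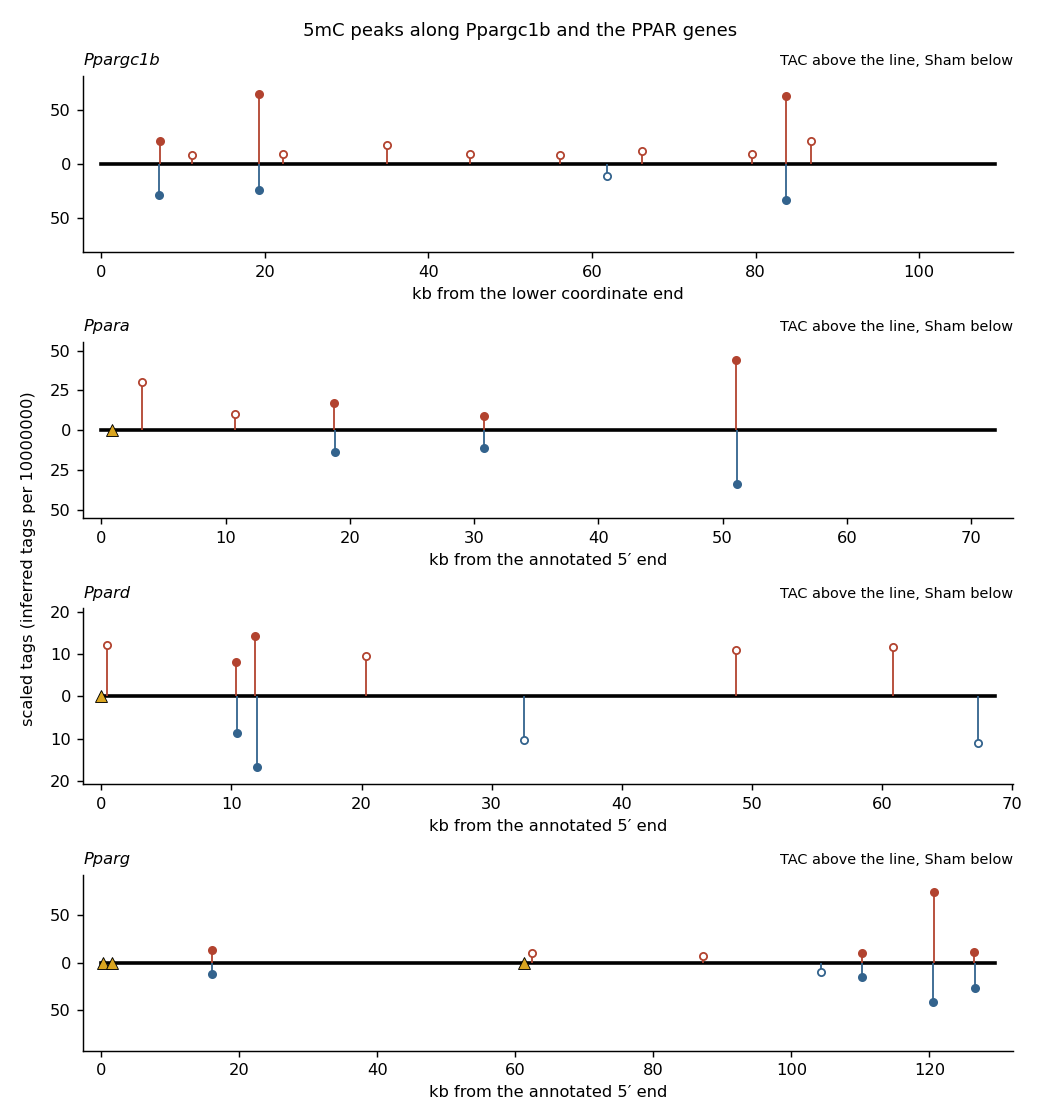
Peaks along Ppargc1b, Ppara, Ppard and Pparg, with the distance in kb on the x axis and scaled tags on the y axis, TAC above and Sham below the line. Filled circles are shared and open circles unshared peaks, triangles are listed promoter starts, and Ppargc1b is drawn from its lower coordinate. In Ppargc1b 8 open TAC circles stand among 3 shared pairs, and in Ppard an open TAC circle stands next to the start.

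The ERR genes ranged from 1 to 61 peaks per list. Esrra encodes ERRα, which drives genes of oxidative phosphorylation, and is the shortest of the 8 genes (chromosome 19, 6910977 to 6922048, 11.1 kb). It held 1 peak in each list, and these overlapped by 334 bp. Its level was 8.19 scaled tags in TAC and 11.1 in Sham. At nearly equal thresholds, and with the TAC list cut to the Sham number, the gene held 0 TAC and 1 Sham peak. The tRNA methyltransferase subunit gene Trmt112, which overlaps the 3′ end of Esrra, held no peak.

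Esrrb, known mainly from embryonic stem cells and the placenta (chromosome 12, 86361117 to 86521628), held 13 TAC and 18 Sham peaks, the reverse order of the other ERR gene with many peaks. Of the 13 TAC peaks 12 were shared, leaving 1 TAC peak and 6 Sham peaks alone. The TAC share was 41.9% (24.5 to 60.9). The 6 Sham peaks without a counterpart had a median row fraction of 0.900 and were thus among the weak ones of the list. Within shared peaks there was no common direction: 5 pairs had more scaled tags in TAC and 7 had fewer. The strongest (chr12:86384091-86384843) had 60.0 in TAC and 39.7 in Sham (ratio 1.51, interval 1.06 to 2.18). The largest gap the other way (chr12:86470047-86470547) was 13.6 in TAC and 38.9 in Sham (ratio 0.350, interval 0.197 to 0.601). That peak was 501 bp wide in TAC and 756 bp in Sham, and the tags were not scaled for width.

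Esrrg encodes ERRγ, an ERR isoform of heart, muscle and brain that is known for its part in the change to oxidative metabolism after birth. It is the other very long gene (chromosome 1, 187608510 to 188214885, 606 kb), with 61 TAC and 47 Sham peaks, or 10.1 and 7.75 per 100 kb. In both lists 40 peaks were shared, so that 21 TAC and 7 Sham peaks stood alone. Its 5 equal parts from the 5′ end held 7, 15, 11, 13 and 15 TAC peaks and 4, 15, 8, 7 and 13 Sham peaks. From its last listed start to the 3′ end, 217 kb, the gene held 25 TAC and 18 Sham peaks. The strongest peak of all 8 genes in both lists lay in the middle of Esrrg (chr1:187904380-187904880), with 105 scaled tags in TAC and 111 in Sham (ratio 0.944, interval 0.746 to 1.20). A wide peak 3.01 kb before the 3′ end (chr1:188210411-188211876) had 79.8 in TAC and 54.0 in Sham (ratio 1.48, interval 1.09 to 2.02).

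The strongest peak of the 8 genes without a counterpart was also in Esrrg. It was a TAC peak (chr1:187960706-187961331) with 54.6 scaled tags and a row fraction of 0.0560, 10.5 kb from the nearest Sham peak. The threshold in the header of the Sham list was 11 tags, or 8.74 scaled tags. A peak also had to stand at least 4-fold over input, so a missing Sham peak does not place the Sham tags under that threshold. Between 50.2 and 76.9 kb from the 5′ end TAC had 3 Esrrg peaks, the strongest with 28.0 scaled tags, within a stretch of 62.2 kb in which Sham had none. The longest stretch between peaks of Esrrg was 30.9 kb in TAC and 62.2 kb in Sham. The non-coding gene Gm36388, which overlaps the 5′ part of Esrrg, held 21 TAC and 19 Sham peaks over its own length, part of which lies outside Esrrg.

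Within the shared peaks of the 8 genes the inferred tags were spread evenly around an equal level. Of 99 pairs, 52 had more scaled tags in TAC, or 52.5%, where 50.7% of shared peaks in all protein-coding genes did, and 47 had fewer. The median ratio was 1.07, against 1.00 over all protein-coding genes. A ratio of at least 2 was found in 7 pairs (7.07%, against 7.53% in all protein-coding genes) and a ratio of at most 0.5 in 7 pairs (7.07%, against 7.84%). The 7 higher pairs lay in Ppargc1a, Ppargc1b and Esrrg, and the largest was in Esrrg (chr1:188168795-188169295), with 29.3 in TAC and 8.74 in Sham (ratio 3.36, interval 1.70 to 7.22). The 7 lower pairs lay in Ppargc1a, Pparg, Esrrb and Esrrg. Both of those in Ppargc1a arose where 1 wide Sham peak faced 2 TAC peaks, which leaves 7 higher and 5 lower pairs outside such places.

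**Figure D4:**
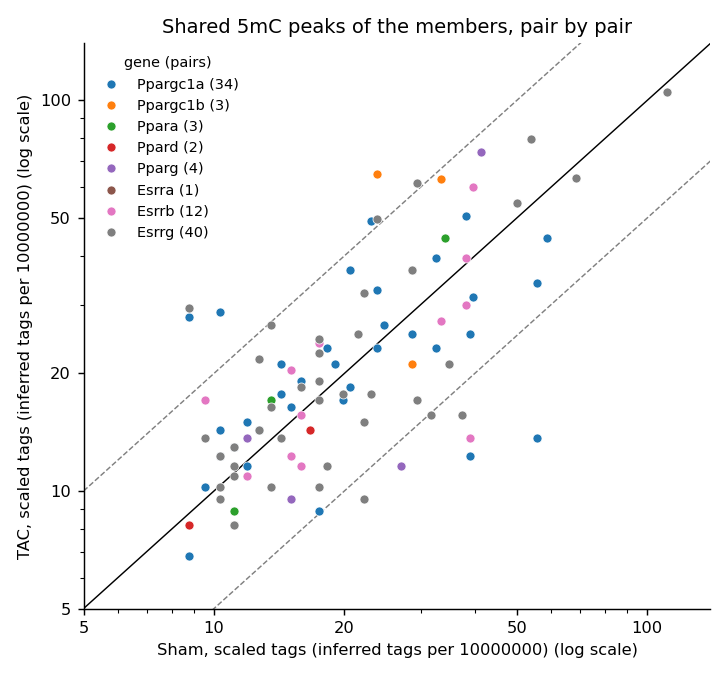
Scaled tags of each of the 99 pairs of overlapping peaks, TAC on the y axis and Sham on the x axis, both on a log scale and coloured by gene. The solid line marks equal values and the dashed lines ratios of 2 and 0.5. The pairs scatter on both sides of the solid line, and the strongest Esrrg pair, at 105 in TAC and 111 in Sham, lies close to it.

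Most unshared peaks stood low in their lists, as they did over all protein-coding genes. In 4 equal parts of the TAC list, from the first to the last, 35 of 41, 32 of 43, 23 of 38 and 9 of 34 peaks of the 8 genes were shared. In the Sham list 33 of 33, 33 of 36, 24 of 35 and 7 of 21 were shared. Peaks without a counterpart had a median row fraction of 0.710 in TAC and 0.753 in Sham, and shared peaks 0.366 in TAC and 0.374 in Sham. Over all protein-coding genes the medians were 0.702 in TAC and 0.684 in Sham without a counterpart. For shared peaks of those genes they were 0.321 in TAC and 0.339 in Sham. Of the 57 unshared TAC peaks 17 had a row fraction of at most 0.5, and of the 28 unshared Sham peaks 3 did. A row fraction of at most 0.2 was found for 5 unshared TAC peaks, 3 of them in Esrrg and 1 each in Ppara and Ppargc1a, and for 0 unshared Sham peaks. Sharing by part of the list and these counts of unshared peaks were not worked out over all protein-coding genes. The median distance to the nearest peak of the other list was 6.97 kb for unshared TAC peaks and 3.96 kb for unshared Sham peaks. The lists differ in length and threshold, so their row fractions describe each list and not a change between them.

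The surroundings of the genes held slightly fewer TAC than Sham peaks, with an interval that held an even split. The 500 kb on either side of the 8 gene bodies held 719 TAC and 788 Sham peaks together, a TAC share of 47.7% (45.2 to 50.3) and a ratio of 0.912. With narrower flanks the numbers were nearly equal, at 319 TAC and 326 Sham peaks. The gene bodies had a higher TAC share than their own flanks of 500 kb in 7 of 8 genes, with Esrrb as the exception. These flanks held fewer TAC than Sham peaks for 7 genes, with Ppargc1a (81 TAC and 72 Sham) as the exception. How many of all protein-coding genes show either pattern was not counted, so neither is shown to be particular to the 8 genes. The intervals of body and flank overlapped for the 8 genes together and for each gene taken alone, and the difference was not tested. Next to Ppargc1b, whose body held 11 TAC and 4 Sham peaks, the flanks held 114 TAC and 137 Sham peaks. Among the nearest protein-coding neighbours, Wnt7b, beside Ppara, held 6 TAC and 11 Sham peaks, and Syn2, beside Pparg, held 6 TAC and 10 Sham peaks.

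**Figure D5:**
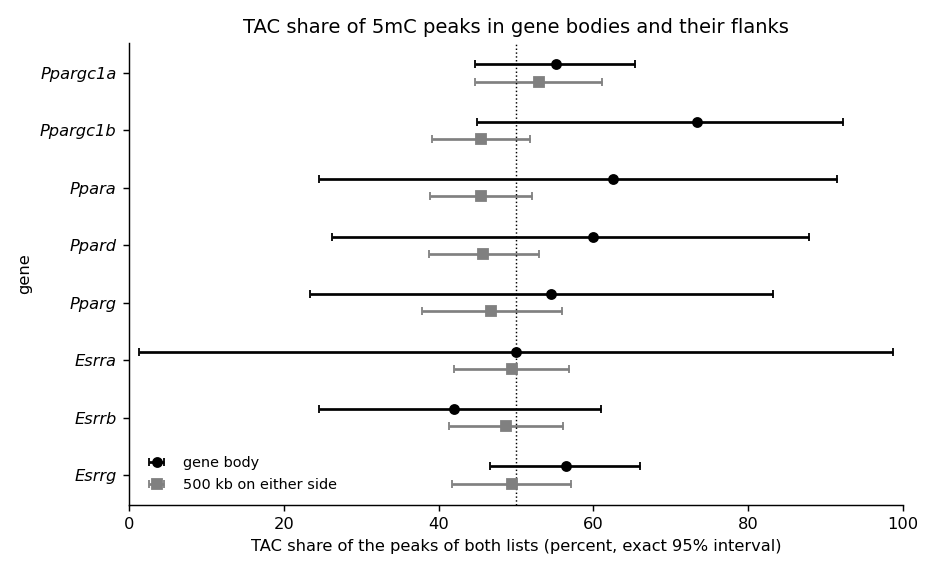
TAC share, in percent, of the peaks of both lists in each gene body (black circles) and in the 500 kb on either side (grey squares), with exact 95% intervals; the dotted line is an even split. The share in the body lies right of that in the flanks for 7 genes and left of it for Esrrb, and the intervals of body and flank overlap in each gene.

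Other protein-coding genes had like lengths and like peak numbers. Likeness was the Euclidean distance over the log2 peak numbers of both lists and the log2 length, for members with at least 10 peaks. The genes were picked for their peak numbers, so the matching TAC and Sham numbers follow from the choice. The closest to Esrrb was Sh3d19 (13 TAC and 18 Sham peaks) and the closest to Ppard was Pfkp (6 and 4), at distances of 0.00712 and 0.00985. Pparg was closest to Cd2ap (6 and 5), Esrrg to Csmd2 (64 and 49), Ppargc1a to Arhgap24 (49 and 40) and Ppargc1b to Specc1l (11 and 4). Cdkal1 was among the 3 closest of both Ppargc1a and Esrrg, with 55 TAC and 50 Sham peaks.

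The partners and targets of these regulators, 76 genes in 7 lists, held nearly equal numbers of peaks, 178 in TAC and 181 in Sham. The TAC share was 49.6% (44.3 to 54.9), an interval that overlaps that of the 8 genes. More TAC peaks were found in 18 genes, fewer in 20, equal numbers in 12 and no peak in 26. Of protein-coding genes with any peak, 39.7% had more TAC peaks and 32.8% fewer. An end was covered in 12 of the 76 genes in TAC and in 14 in Sham, where 24.5% and 23.6% of all protein-coding genes were covered. The RXR genes held 16 TAC and 22 Sham peaks, mostly in Rxra (13 and 18), the main cardiac partner of PPARs, which was covered at an end in Sham alone. Their median was 15.0 TAC and 15.2 Sham peaks per 100 kb. Genes of other coactivators held 35 and 40, with fewer TAC peaks in 4 and more in 1, and Ncoa1, a steroid receptor coactivator gene, at 10 TAC and 14 Sham peaks. Corepressor genes held 25 TAC and 24 Sham peaks. Genes of upstream regulators of PGC-1 held 56 TAC and 59 Sham peaks, with Prkag2, for a regulatory subunit of the AMP-activated kinase, at 30 and 34. Klf15, a factor that controls PPARα target genes, and Crtc1, a CREB coactivator gene, were covered at an end in Sham alone. Factors of mitochondrial biogenesis held 14 and 15, with Nrf1 at 9 and 10, and Gabpb1 was covered at an end in TAC alone.

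The 21 PPAR target genes held 17 TAC and 17 Sham peaks, and 10 of them held none, so that their median was 0 per 100 kb in both lists. Cd36, the fatty acid transporter gene, had 5 TAC and 0 Sham peaks. Those 5 peaks were each 501 bp wide with 7.50 to 14.3 scaled tags, where the threshold of the TAC list was 8.19. Plin2 and Mlycd each had 2 TAC and 3 Sham peaks. Fabp3, for the fatty acid binding protein of heart, and Mlycd were covered at an end in Sham alone, and Plin5, a lipid droplet gene of oxidative tissue, in TAC alone.

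The 19 ERR target genes, most of which encode enzymes of the citric acid cycle, the respiratory chain and mitochondrial fusion, held 15 TAC and 4 Sham peaks. More TAC peaks were found in 9 of them, fewer in 0, equal numbers in 2 and none in 8, where 39.7% of protein-coding genes with any peak had more TAC and 32.8% fewer. The TAC share was 78.9% (54.4 to 93.9). At nearly equal depth-scaled thresholds they held 11 TAC and 4 Sham peaks, and the interval (44.9 to 92.2) then held an even split. Their median was 3.01 TAC and 0 Sham peaks per 100 kb, against 3.72 TAC and 2.91 Sham peaks per 100 kb over all protein-coding genes. Mfn1, for a mitofusin, had 3 TAC and 0 Sham peaks, and Ndufs1, Sdhb, Mdh2, Uqcrc2, Idh3a, Cox5a and Cs had 1 TAC and 0 Sham peaks each. The 3 Mfn1 peaks and the Sdhb peak had 12 inferred tags each and are the 4 lost at the nearly equal thresholds, which left both genes with no peak. Mfn2 and Ckmt2 had 2 in each list, and Ndufv1 was covered at an end in TAC alone. Of the 15 TAC peaks 2 were shared, where 59.9% of TAC peaks in all protein-coding genes were. A row fraction of at most 0.5 was found for 5, against 51.1% in all protein-coding genes, and the median was 0.638. The one strong peak, in Mfn2, was shared, with 44.3 scaled tags in TAC and 32.6 in Sham.

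Peaks cannot show which cells the DNA came from. Genes of cardiomyocyte identity held 47 TAC and 29 Sham peaks, of which Ryr2 alone held 31 and 20. Fibroblast markers held 11 TAC and 8 Sham peaks, endothelial markers 28 and 32, immune markers 17 and 9, and adipocyte markers 5 and 7. The part of any difference in cell content in the peak numbers of the 8 genes was not tested.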

How the data were processed

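The samples are MeDIP-seq libraries of 1 TAC and 1 Sham isolate and an Input library. Per the submitters' processing notes, the tools were HOMER 4.5, Picard and BWA 0.7.4-r385 and the build was mm10. The sources used here do not give the role of each tool. Per the file headers, HOMER called peaks in each library against the same input, with 500 bp as peak size, 1000 bp as least distance between peaks, at least 4-fold over input at a Poisson p of 0.0001, and a tag threshold of 12 in TAC and 11 in Sham. The deposited score column is 1 for every peak and ranks nothing.

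Both lists are ordered in runs that restart along the chromosomes. Counting down by 1 tag per run to 8 in the last gave the inferred tag number. Its sum was 99.3% of the tags in peaks in each header, but 3.25% of the peaks of each list fell under the header's threshold. No source states this reading, and all inferred tags and row fractions rest on it. Interval limits of ratios come from the binomial share and cover counting error only. Ratios compare whole peaks, which can differ in width between the lists, and were not scaled for width.

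Genes were those of RefSeq GRCm38.p6, and starts those of its promoter windows. The members and the gene lists were chosen with earlier results of these data known. Named genes were the 8 members, overlapping and neighbouring genes, and 3 like genes per member. From each pathway list they were the gene with the most peaks, genes with numbers 5 or more apart, and genes covered at an end in 1 list alone. A few genes that meet these rules are not reported here. Other named neighbours, single ERR target genes and single peaks were picked after their values were seen. With 1 library per group no test was run. Counting and overlap were checked on simulated lists. Python 3.11.15, pandas 2.3.3 and SciPy 1.17.1 were used.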

Additional observations from a re-analysis of the deposited data

How the results depend on the processing

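Peak numbers were counted again with any overlap of 1 bp, 5 kb added to gene bodies, only peaks with a row fraction of at most 0.5, the TAC list cut by order to the Sham number, only peaks of at least 500 bp (which left out none), and nearly equal depth-scaled thresholds. Chosen after seeing the data were leaving out Ppargc1a and Esrrg, starting Ppargc1a at its listed start, other flank and start windows, and sharing within the upper part of each list. The TAC share over the 8 genes ran from 52.1% to 56.0% and stayed above an even split under all 8, lowest with the TAC list cut to the Sham number (136 TAC and 125 Sham peaks). Esrrb stayed below an even split and Ppargc1a, Ppargc1b, Ppara and Esrrg above it under all 6 planned settings; Ppard and Pparg did not, on 10 and 11 peaks, and Esrra was at or below it, with 1 TAC and 2 Sham peaks after 5 kb were added.

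Sharing within peaks of a row fraction of at most 0.5 was 79.8% in TAC and 95.7% in Sham. With windows of 2000 bp the number of genes with a covered end was 3 in TAC and 3 in Sham, and among peaks of a row fraction of at most 0.5 there were 0 in TAC. Starts with a peak numbered 1 in TAC and 0 in Sham within 500 bp, and 7 in TAC and 3 in Sham within 2000 bp. For these windows, and for the peaks of a row fraction of at most 0.5, shares over all genes or starts were not counted. Without those shares the numbers cannot show whether the 8 genes differ from others. The TAC share in the flanks was 44.2% (41.5 to 46.8) with the TAC list cut and 46.3% (43.7 to 49.0) at nearly equal thresholds. With narrower flanks it was 49.5% (45.5 to 53.4), close to an even split. Other settings moved no result of the 8 genes together, of the pathway lists or of the flanks out of its interval. The causes were not tested, except that the ERR target genes lost 4 of 15 TAC peaks, all of 12 inferred tags, at the nearly equal thresholds and also with the TAC list cut, after which their interval (44.9 to 92.2) held an even split. The TAC share of the other 6 pathway lists stayed within its interval.

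No paired analysis was possible because each group has 1 library. Depth limits the weakest peaks: the header thresholds were 12 tags in TAC and 11 in Sham, which is 8.19 and 8.74 scaled tags, and 3.25% of the inferred tag numbers of each list lie below them.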

Other observations

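The peaks of the 8 genes covered 98.9 kb in TAC and 79.5 kb in Sham, with a median width of 501 bp in both lists. The covered part of a gene body ran from 2.52% in Pparg to 6.11% in Esrrg in TAC, and from 2.19% in Ppargc1b to 6.69% in Esrrb in Sham. Ppargc1b had 5.53% of its length covered in TAC and 2.19% in Sham. In Esrrb, 5.25% was covered in TAC and 6.69% in Sham. The non-coding gene Gm46627, inside Ppargc1b, held 1 TAC and 1 Sham peak. Of the other genes that overlap the members, Gm52354, Mir6990, 1810013A23Rik, Gm40483, 9330162B11Rik and Gm51738 held no peak midpoint in either list.

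Other nearest protein-coding neighbours held few peaks. Beside Ppargc1a, Adgra3 held 7 TAC and 11 Sham peaks and Dhx15 1 and 1. Beside Ppargc1b, Pde6a held 9 TAC and 7 Sham peaks and Arhgef37 6 and 9. Def6 and Fance, beside Ppard, held 4 TAC and 5 Sham and 1 TAC and 2 Sham peaks. Gpatch2l and Vash1, beside Esrrb, held 5 TAC and 4 Sham and 4 TAC and 4 Sham peaks, and Gpatch2, beside Esrrg, 7 TAC and 10 Sham peaks. Cdpf1, beside Ppara, and Prdx5 and Catsperz, beside Esrra, held none. Of the genes next in likeness, Kcnma1 (to Ppargc1a) held 55 TAC and 48 Sham peaks, Slc39a12 and Htr7 (to Ppargc1b) 9 TAC and 4 Sham peaks each, and Nav2 (to Esrrg) 57 TAC and 55 Sham peaks. Rgsl1 and Atp2b3 had the same numbers as Ppard, Map4k4 and Boll the same as Pparg, and Vav2 the same as Esrrb, while Zswim6 held 13 TAC and 17 Sham peaks.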
